A study of Homo sapiens with 16 samples.

Results

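The regions described here are the H3K9me2 peaks that lie on LINE1 repeats in BJ-5ta cells, human fibroblasts made immortal by hTERT, the catalytic part of telomerase. Members were the rows of the deposited peak table whose annotation names a repeat of the L1 family of LINE elements. There were 3120 of them among 16092 peaks (19.4%), under 112 of the 689 annotation names in the table, and the other 12972 peaks served as the comparison. The table gives 1 annotation per peak, and HOMER, the annotation tool in the submitters' processing notes, assigns it by the middle of the peak.

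ChIP and input DNA were sequenced from wild-type cells and from ΔLEO1 cells, in which LEO1, a subunit of the PAF1 complex that travels with RNA polymerase II, had been disrupted with CRISPR/Cas9. The ΔLEO1 cells were 1 clone. Each genotype was grown in 10% serum, where the cells divide, or held for 10 days in 0.1% serum, where they become quiescent, so the 4 groups shared the hTERT line and differed in genotype and serum. Each group had ChIP and input libraries A and B, and nothing in the labels ties the letters to separate cultures, so p-values measure the spread between libraries. The labels give the antibody as H3, and the methods of the study name H3K9me2. The ΔLEO1 10% serum ChIP library A held 54 reads over the windows around transcription start sites (TSS) and 4 reads on LINE1 peaks, and it was left out, which left 7 ChIP and 8 input libraries.

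LINE1 elements are retrotransposons that copy themselves through an RNA and encode their own reverse transcriptase. Most human copies are old, cut short at the 5′ end and kept silent in somatic cells by DNA methylation and by repressive histone marks, H3K9 methylation among them. L1HS is the youngest human family, the L1PA and L1PB families arose during primate evolution, and the L1M families are shared more widely among mammals. H3K9me2 is written mainly by the methyltransferases EHMT1 and EHMT2 and covers broad, gene-poor domains.

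The LINE1 peaks were mostly of primate age. L1HS and L1PA names held 1511 peaks (48.4%), L1MA names held 498 (16.0%), the remaining L1M names 488 (15.6%), other L1P names 281 (9.01%) and L1PB names 192 (6.15%). The old L1MB, L1MC, L1MD and L1ME names held 29, 30, 40 and 45 peaks, and HAL1 names, which the table lists under L1, held 6. The most frequent single names were L1PA7 with 211 peaks, L1PA6 with 192 and L1M1 with 170. L1PA2 had 26 peaks and L1HS had 1. Young copies are nearly identical to each other, and how reads that match several copies were placed is not given in the sources used here, so levels on L1HS, L1PA2 and L1PA3 are uncertain in that respect.

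LINE1 peaks lay far from gene starts. Their median distance to the nearest listed start was 99581 bp, against 61348.5 bp for the other peaks, and 49.8% were more than 100000 bp away, against 36.7%. LTR retrotransposon peaks were nearly as far from starts, with a median of 94323 bp. The remaining classes ran from 11303 bp (any other annotation) to 71705.5 bp (intergenic peaks without a repeat). The median width of LINE1 peaks was 803.5 bp, against 749 bp for all other peaks. Of the LINE1 peaks, 28.2% had their middle inside the body of a protein-coding gene in RefSeq (881 peaks in 641 genes), against 35.5% of the other peaks. These shares are descriptions of the table and were not tested.

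Of the LINE1 peaks, 76 overlapped a window of the TSS table (2.44%, against 12.6% of the other peaks), and 2 lay within 1000 bp of the nearest start that the peak table lists (0.0641%, against 3.74%). The listed distance does not cover every start in RefSeq. An L1M2 peak at chr7:101299889-101300649 lay 656 bp from LNCPRESS1, a long noncoding RNA gene, and had between 35.5 and 67.8 CPM in the ChIP libraries. CPM here are counts scaled to 1000000 reads in peaks after TMM (trimmed mean of M-values) normalization, among ChIP or among input libraries. An L1MA1 peak at chr1:159397523-159398257 lay 420 bp from OR10J1, an olfactory receptor gene, and had between 44.9 and 65.1 CPM in ChIP. Both peaks were about as high as the median LINE1 peak, which had a mean of 61.8 CPM over the 7 ChIP libraries.

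A genome sequence was not used, but RefSeq promoters, 250 bases before to 50 bases after a gene start in GRCh38.p14, showed 3 places where a LINE1 peak overlapped such a promoter. All were in uncharacterized RNA genes. Sequence under a LINE1 peak could be read in these promoters, and the 2 with the most bases inside a peak are printed. The first lies wholly inside an L1PA15-16 peak (chr1:221503408-221505067), and the second shares 88 bases with an L1PA5 peak (chr3:178923576-178924663). Bases inside the peak are in capitals, and both genes are on the minus strand.
LOC105372934, chr1:221504211-221504510: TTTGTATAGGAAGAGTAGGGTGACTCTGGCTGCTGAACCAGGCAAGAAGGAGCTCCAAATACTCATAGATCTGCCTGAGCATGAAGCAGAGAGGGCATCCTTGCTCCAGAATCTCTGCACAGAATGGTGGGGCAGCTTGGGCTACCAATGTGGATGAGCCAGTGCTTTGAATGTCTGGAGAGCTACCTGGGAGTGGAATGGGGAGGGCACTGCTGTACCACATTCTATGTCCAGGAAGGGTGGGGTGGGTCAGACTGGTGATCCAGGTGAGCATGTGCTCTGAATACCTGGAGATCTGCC
LOC124906307, chr3:178924576-178924875: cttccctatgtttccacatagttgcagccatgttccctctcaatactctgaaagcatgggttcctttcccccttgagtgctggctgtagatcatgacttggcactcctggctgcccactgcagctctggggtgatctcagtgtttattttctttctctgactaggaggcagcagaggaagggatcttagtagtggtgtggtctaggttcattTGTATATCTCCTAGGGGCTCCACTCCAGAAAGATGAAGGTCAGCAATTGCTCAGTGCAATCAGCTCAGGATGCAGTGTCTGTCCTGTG

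The GC content was 53.3% for LOC105372934 and 49.7% for LOC124906307, and the median over 35116 promoters of the same length was 58.7%. The L1PA15-16 peak over the LOC105372934 start was among the higher ones, with 105 and 129 CPM in wild-type 10% serum ChIP, 76.9 in the ΔLEO1 10% serum library, 123 and 177 in wild-type 0.1% serum, and 136 and 139 in ΔLEO1 0.1% serum. The 0.1% serum groups overlapped. The third promoter, of LOC105371957 on chromosome 18, shared 22 bases with an L1MC1 peak (chr18:2019795-2020664). That peak had 77.9 and 63.0 CPM in wild-type 10% serum ChIP and 26.8 and 30.6 CPM in wild-type 0.1% serum ChIP. In ΔLEO1 ChIP it had 58.8 CPM in 10% serum and 41.4 and 46.5 CPM in 0.1% serum. In wild type, 16.5% of LINE1 peaks and 19.5% of all peaks were lower in both 0.1% serum libraries, and no LINE1 peak was called by edgeR with TMM.

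The first question was how strongly LINE1 peaks were enriched over input, and whether more so than other peaks. All libraries were set against their reads in TSS windows, because the peak table holds only enriched regions. In ChIP, LINE1 peaks took 25.3 and 23.8 reads per 1000 TSS-window reads in wild type with 10% serum, 23.1 and 22.6 in wild type with 0.1% serum, 21.1 in the ΔLEO1 10% serum library, and 18.9 and 17.8 in ΔLEO1 with 0.1% serum. The 8 inputs took between 5.07 and 6.51. Every ChIP library thus lay above every input. The ratio of mean ChIP to mean input was 4.72 in wild type with 10% serum and 4.18 in wild type with 0.1% serum. In ΔLEO1 it was 3.56 with 10% serum and 3.35 with 0.1% serum. The 3.56 rests on 1 ChIP library and on inputs that took 6.51 (A, the shallowest input) and 5.36 (B). For the other peaks the ratios were 4.76, 4.03, 3.44 and 3.33. The order of the groups was the same in both sets of peaks. Reads in TSS windows can differ between groups and between ChIP and input too, so these ratios are relative to gene starts.

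**Figure D1:**
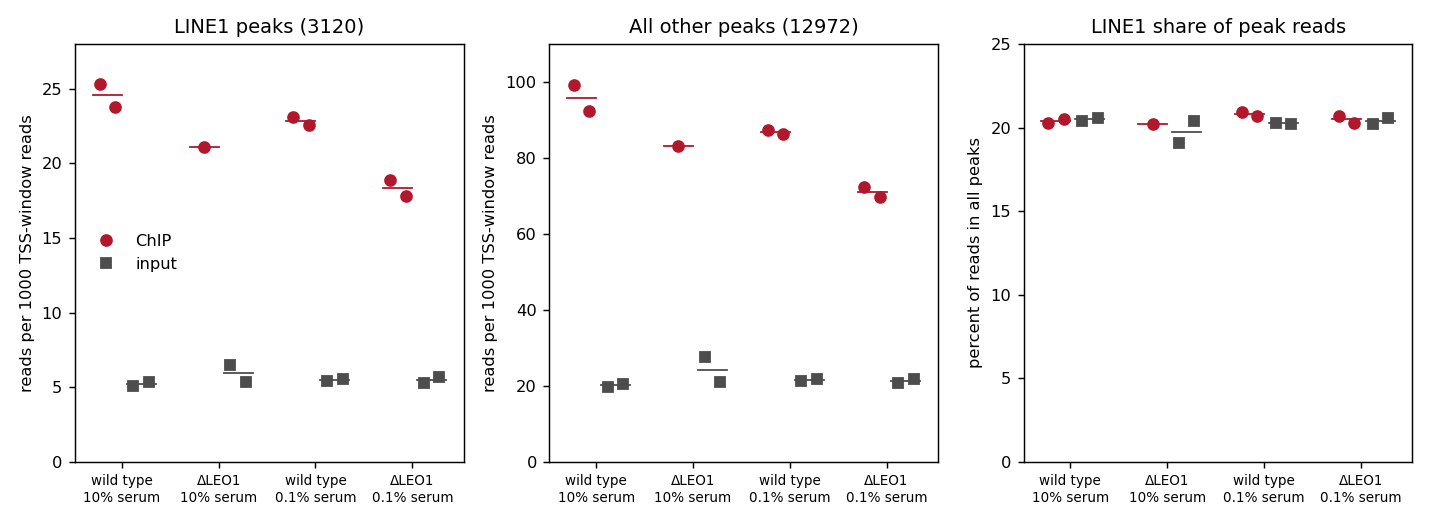
Reads on LINE1 peaks (left) and on all other peaks (middle) per 1000 reads in TSS windows, and the share of peak reads on LINE1 peaks in percent (right), for each of 7 ChIP libraries (red circles) and 8 inputs (grey squares), with lines at group means. ChIP lies above input in the left and middle panels, with ΔLEO1 0.1% serum lowest at 18.9 and 17.8 on LINE1 peaks, while the shares on the right overlap.

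Peak by peak, edgeR called 3117 of the 3120 LINE1 peaks higher in ChIP than in input with TSS-window totals as library sizes, where 99.8% of all peaks were called. The peaks had been selected for enrichment, so this count describes the table. The median log2 ratio was 1.97 over LINE1 peaks and 1.94 over all peaks. Scaled by TMM within the peak table, which asks whether a peak is enriched more or less than the typical peak, 42 peaks (0.261%) were called and 1 of them was a LINE1 peak. This was an L1ME4a peak at chr4:181986479-181987381 (log2 ratio -1.45 ± 0.30, SE, adjusted p = 0.00549), annotated to TEMN3-AS1.

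The share of peak reads on LINE1 peaks overlapped between ChIP and input, and the difference was not tested. The share in ChIP was between 20.2% and 20.9% over the 7 libraries and in input between 19.1% and 20.6% over the 8, so the ranges overlapped. The lowest input, ΔLEO1 10% serum A at 19.1% (Wilson 95% interval 18.9 to 19.4), was also the shallowest, with 21271 reads on LINE1 peaks and 94 of them without a read. Per kb of peak and per 1000000 TSS-window reads, LINE1 peaks had 8.20 reads in ChIP and 2.08 in input, and all other peaks 7.96 and 2.06. The ratio of the mean over 7 ChIP libraries to the mean over 8 inputs was 3.95 for LINE1 peaks, near the 4.03 of LTR retrotransposons and above Alu (3.54), L2 (3.45), MIR (3.64), DNA transposons (3.54) and peaks without a repeat in intergenic (3.77) or intronic (3.70) sequence. The 1673 peaks with any other annotation had a ratio of 4.11. Differences between classes were not tested.

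The LINE1 peaks with the highest CPM were wide, at 1246 to 2074 bp, and lay on several chromosomes. Their mean levels were 144 to 162 CPM in ChIP and 125 to 153 CPM in input, and CPM are not divided by width. The first by level was an L1M2 peak near MIR4300 (chr11:81892533-81894454), with 162 ± 36.3 CPM (SD over 7 libraries) in ChIP. The second was an L1M3e peak near LINC00466 (chr1:63285735-63287607), with 161 ± 10.2 CPM. The third was an L1PA13 peak 16005 bp from CDKN2B, which encodes an inhibitor of cyclin-dependent kinases (chr9:22024334-22026303, 158 ± 16.2 CPM). Of these, the CDKN2B peak had 168 and 167 CPM in wild-type 10% serum, 140 in the ΔLEO1 10% serum library, 185 and 143 in wild-type 0.1% serum, and 154 and 149 in ΔLEO1 0.1% serum. Its groups overlapped between genotypes in 0.1% serum. The other 7 were L1MA4A near PRKACB, L1PA10 near PTPN5, L1MA8 near NPAS3, L1M2c near LOC100132215, L1M3e near SMYD3, L1PA12 near LOC100506076 and L1PA10 near TMEM38B. The 10 peaks had log2 ratios of ChIP to input from 2.02 to 2.29, and their genotype differences lay between -0.39 and 0.43 (log2), with adjusted p of 0.699 or more in edgeR.

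Large genes held several LINE1 peaks each. CTNNA3, which encodes an alpha-catenin of cell junctions, held 9 of its 17 peaks on LINE1 (chr10:65912523-67763594 in RefSeq), followed by EYS, INSL6, MGAT4C, STXBP5L and WDPCP with 6 each, and 15 genes held 5 or more. Summed over its LINE1 peaks, CTNNA3 had 539 and 623 CPM in wild-type 10% serum ChIP, 507 in the ΔLEO1 10% serum library, 567 and 550 in wild-type 0.1% serum, and 549 and 451 in ΔLEO1 0.1% serum. Gene sums are scaled to total peak reads without TMM. In 10% serum the ΔLEO1 ChIP library was below both wild-type values. The 10% serum inputs had the same order, with 419 and 486 CPM in wild type and 378 and 405 CPM in ΔLEO1. In 0.1% serum ChIP 550 and 549 CPM were nearly equal, so the order of the genotypes there is not resolved. INSL6, a relaxin family gene, was much denser, with 6 LINE1 peaks in 194 kb against 9 in 1850 kb for CTNNA3. Its ChIP levels were 310 and 309 CPM, 325 CPM, 385 and 427 CPM, and 350 and 418 CPM in the same order, so the 0.1% serum genotypes overlapped.

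Enrichment differed a little among L1 names. Counts were summed per annotation name and fitted over all 689 names with edgeR, with TMM setting the typical name to 0, and 5.66% of names were called in either direction (4.79% higher and 0.871% lower). Of the 112 L1 names, 8 were called higher in ChIP relative to input and 1 lower. The 8 were L1M3e (log2 0.17 ± 0.040, adjusted p = 0.00693, 53 peaks), L1PA8A (0.13 ± 0.035, 0.0174), L1M2 (0.12 ± 0.028, 0.00489), L1PA13 (0.12 ± 0.030, 0.00746), L1PA12 (0.12 ± 0.038, 0.0466), L1PA15 (0.10 ± 0.028, 0.0332), L1PA6 (0.09 ± 0.024, 0.0157) and L1PA10 (0.08 ± 0.025, 0.0488). Each of the 8 names had at least 50 peaks, and all 8 differences were under 0.2 log2 units. Without TMM, 1 L1 name was called, and with 1 library left out the count ran from 4 to 18, the 18 without the ΔLEO1 10% serum input B and the 4 without the wild-type 0.1% serum input A.

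The name called lower was L1ME4a (-0.71 ± 0.18, adjusted p = 0.00933). It had 2 peaks, 1 of them the TEMN3-AS1 peak described above. Among the 38 L1 names with at least 20 peaks, which covered 2755 peaks, 31 lay above 0 and L1MA1 was the lowest (-0.07 ± 0.041, adjusted p = 0.396). The youngest names with enough peaks, L1PA2 (0.16 ± 0.057, adjusted p = 0.0906), L1PA3 (0.10 ± 0.041, 0.180) and L1PA4 (0.01 ± 0.032, 0.850), did not pass the test. By age group, the same ratio of library means ran from 3.45 for L1MC to 3.99 for other L1P names, with 3.98 for L1HS and L1PA together.

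**Figure D2:**
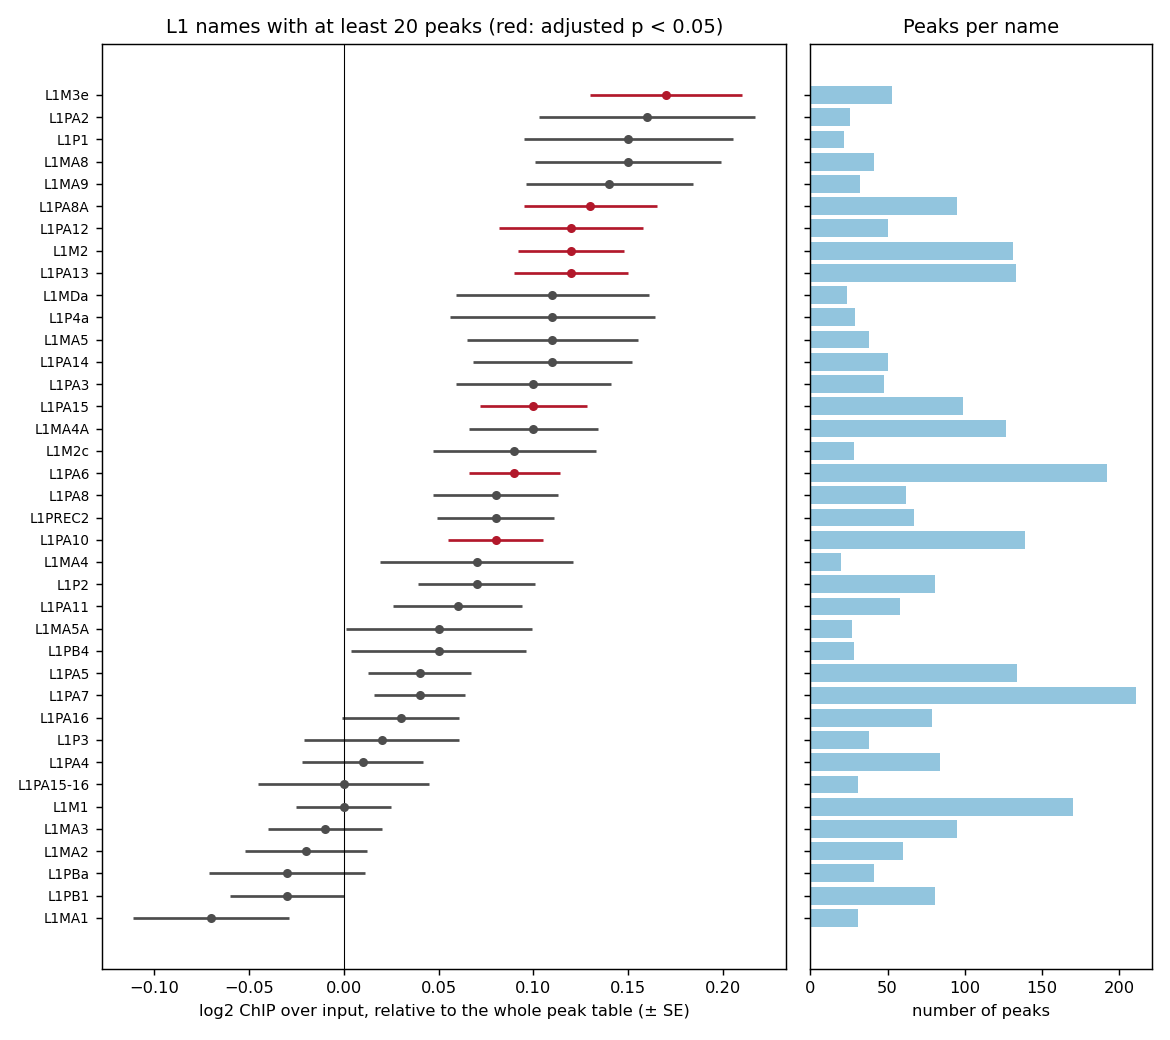
Log2 ratio of ChIP to input relative to the whole peak table, with SE, for the 38 L1 names with at least 20 peaks (left, 7 ChIP and 8 input libraries), and the number of peaks under each name (right). Red marks the 8 names with an adjusted p under 0.05, from 0.08 (L1PA10) to 0.17 (L1M3e), and the names span -0.07 to 0.17.

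The second question was whether LINE1 peaks differed between ΔLEO1 and wild type in quiescent cells. Against TSS-window reads, LINE1 peaks took 18.3 ± 0.746 reads per 1000 in ΔLEO1 and 22.8 ± 0.375 in wild type (SD, n = 2 each), a ratio of 0.804. The libraries of the 2 genotypes did not overlap. The other peaks had a ratio of 0.819, so the LINE1 share of peak reads was 20.7% and 20.3% in ΔLEO1 and 20.9% and 20.7% in wild type. In the inputs of the same cells the ratio was 1.00 on LINE1 peaks and 0.993 on the others. With 10% serum, where ΔLEO1 had 1 ChIP library, the ChIP ratio was 0.861 on LINE1 peaks and 0.869 on the others. A ratio to TSS-window reads depends on reads in both kinds of region, and the fly chromatin added as a spike-in by the study was not used here, so an amount of H3K9me2 per cell cannot be read from it.

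Relative to the other peaks, no single LINE1 peak was called between genotypes. With TMM, which sets the typical peak to no change, edgeR called 0 of 3120 LINE1 peaks, where 0.0621% of all peaks were called. At an unadjusted p under 0.05 there were 219 LINE1 peaks (7.02%), against 8.33% of all peaks, and DESeq2 called 0 LINE1 peaks as well. The median log2 difference was -0.01 over LINE1 peaks and 0.01 over all peaks, and 1524 LINE1 peaks lay above 0 and 1596 below. The median SE of a single LINE1 peak was 0.388 log2 units at 13 to 23 reads per peak in the median. Scaled by TSS-window totals instead, the median was -0.32 for LINE1 peaks and -0.30 for all, and 13 LINE1 peaks (0.417%, against 0.572% of all peaks) were called, all 13 lower in ΔLEO1. Of these 13, 6 lie on chromosome 4 between 80 and 190 Mb, where ΔLEO1 input was also lower and which holds 5.10% of LINE1 peaks.

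**Figure D3:**
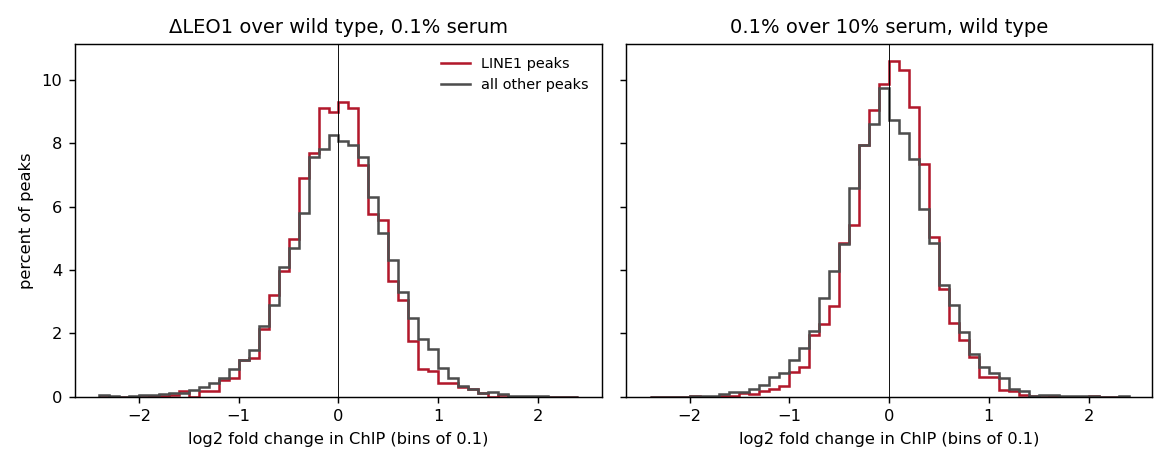
Percent of peaks in bins of log2 fold change of 0.1, in ChIP, for the 3120 LINE1 peaks (red) and the 12972 other peaks (grey), for ΔLEO1 over wild type in 0.1% serum (left) and for 0.1% over 10% serum in wild type (right). Both sets centre near 0 in both panels, and the LINE1 peaks are somewhat narrower, with quartiles of -0.304 and 0.27 on the left against -0.305 and 0.335 for the others.

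In 536 LINE1 peaks (17.2%) both ΔLEO1 libraries lay above both wild-type libraries in CPM, and in 633 (20.3%) both lay below, against 18.1% and 19.4% of all peaks. None of the following peaks passed the test, and they are given by their size. The largest negative differences were at an L1ME4b peak on chromosome 4, 845519 bp from LNCPRESS2 (log2 -1.83 ± 0.72), and an L1M1 peak 323005 bp from TRAM1L1, a translocation-associated membrane protein gene (chr4:116762269-116762874, -1.79 ± 0.61). The L1M1 peak had 37.6 and 78.1 CPM in wild type and 20.7 and 9.29 CPM in ΔLEO1, with 67.8 CPM in the ΔLEO1 10% serum library. That library lay above both wild-type 10% libraries, so the direction was not shared between serum conditions. An L1M3 peak on chromosome 6, an L1PA5 peak 28861 bp from TAC1, the gene of the neuropeptide substance P, and an L1M4b peak on chromosome 4 had differences of -1.65 ± 0.71, -1.64 ± 0.65 and -1.59 ± 0.53. The TAC1 peak (chr7:97760631-97761264) had 53.7 and 50.9 CPM in wild type and 11.8 and 23.2 CPM in ΔLEO1.

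The largest positive difference was at the TEMN3-AS1 peak already described (L1ME4a, 1.70 ± 0.59, adjusted p = 0.305 in edgeR). It had 21.5 and 13.6 CPM in wild type and 65.1 and 51.1 CPM in ΔLEO1 with 0.1% serum, but 77.9 and 38.3 CPM in wild type and 9.05 CPM in ΔLEO1 with 10% serum. The genotypes were thus ordered oppositely in the 2 serum conditions, the 10% pair with 1 ΔLEO1 library. An L1PA7 peak 8068 bp from MIR1263 (chr3:164163085-164163892) had 42.9 and 23.8 CPM in wild type and 79.8 and 116 CPM in ΔLEO1 (1.46 ± 0.40, adjusted p = 0.130). In 10% serum the order was the opposite, with 59.9 and 65.7 CPM in wild type and 45.2 CPM in the ΔLEO1 library. An L1M2 peak on chromosome 13 (1.44 ± 0.41), an L1PB4 peak on chromosome 14 near FSCB (1.43 ± 0.60) and an L1PB1 peak on chromosome 5 near PMCHL1 (1.39 ± 0.59) followed. The smallest adjusted p among LINE1 peaks was 0.0688 in edgeR, at an L1PA7 peak on chromosome 4 annotated to TNIP3 (chr4:121284602-121285645), named here after its values were seen. It had 123 and 81.5 CPM in wild type and 23.7 and 51.1 CPM in ΔLEO1 (-1.57 ± 0.39), and its input had 84.2 and 117 CPM against 64.7 and 72.6 CPM. In 10% serum the ΔLEO1 ChIP library had 90.5 CPM, above both wild-type libraries with 68.9 and 71.2 CPM.

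One L1 name was called between genotypes. Summed over its 48 peaks on 18 chromosomes, L1PA3, a young primate family, had 2699 and 2670 CPM in wild-type and 2219 and 2156 CPM in ΔLEO1 0.1% serum ChIP. It was lower in ΔLEO1 by edgeR (log2 -0.29 ± 0.063, adjusted p = 0.0124), where 1.16% of the 689 names were called. In 10% serum the ΔLEO1 library had 2354 CPM, below both wild-type libraries with 2559 and 2420 CPM. The 0.1% serum inputs had the opposite order, with 2237 and 2301 CPM in wild type and 2570 and 2321 CPM in ΔLEO1. Their log2 difference was 0.11 ± 0.09 (adjusted p = 0.983 in edgeR). Taken against input in 1 fit, the ChIP difference was -0.39 ± 0.11 and did not pass (adjusted p = 0.224 in edgeR).

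The single peaks of L1PA3 hold the same reads as its sum, so their counts describe the call and lend it no support. Of its 48 peaks, 37 had lower fitted values in ΔLEO1 and 11 had higher ones, with a median of -0.27. Of all 3120 LINE1 peaks, 1596 lay below 0. At an unadjusted p under 0.05 in edgeR, 2 of the L1PA3 peaks were lower and 1 was higher. None passed alone (smallest adjusted p 0.459 in edgeR). The largest was a peak at chr7:19882973-19883630 annotated to TMEM196, chosen after its values were seen, with 59.0 and 74.7 CPM in wild type and 29.6 and 32.5 CPM in ΔLEO1. The call was lost in DESeq2 (adjusted p = 0.385) and when 1 of 3 libraries was left out, with adjusted p of 0.129 without ΔLEO1 A, 0.249 without ΔLEO1 B and 0.110 without wild type A, while the log2 difference stayed between -0.32 and -0.28.

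No other L1 name passed, and the number of names below 0 changed with the scaling. With TMM, 71 of the 112 names lay below 0 and 41 above (63.4% below, against 50.4% of all 689 names). With library totals in place of TMM, 58 lay below and 54 above (51.8%, against 43.5%). With TMM, an unadjusted p under 0.05 was reached by 18 (16.1%, against 12.3% of all names), and 16 of these lay below 0 (14.3%, against 6.97% of all names). L1PA16 had 5406 and 5155 CPM in wild type and 4682 and 4675 CPM in ΔLEO1 (-0.18 ± 0.047, adjusted p = 0.0608), and L1PBa had 2437 and 2615 CPM against 2151 and 2142 CPM (-0.23 ± 0.064, adjusted p = 0.0735). The 0.1% serum inputs of L1PA16 were also lower in ΔLEO1, at 4777 and 5134 CPM against 5178 and 5180 CPM in wild type. Those of L1PBa overlapped, at 2542 and 2603 CPM in ΔLEO1 and 2678 and 2290 CPM in wild type. In ChIP, L1PA7, the name with the most peaks, differed by -0.07 ± 0.032 (adjusted p = 0.371 in edgeR), and L1PA6 by 0.02 ± 0.032 (0.867).

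**Figure D4:**
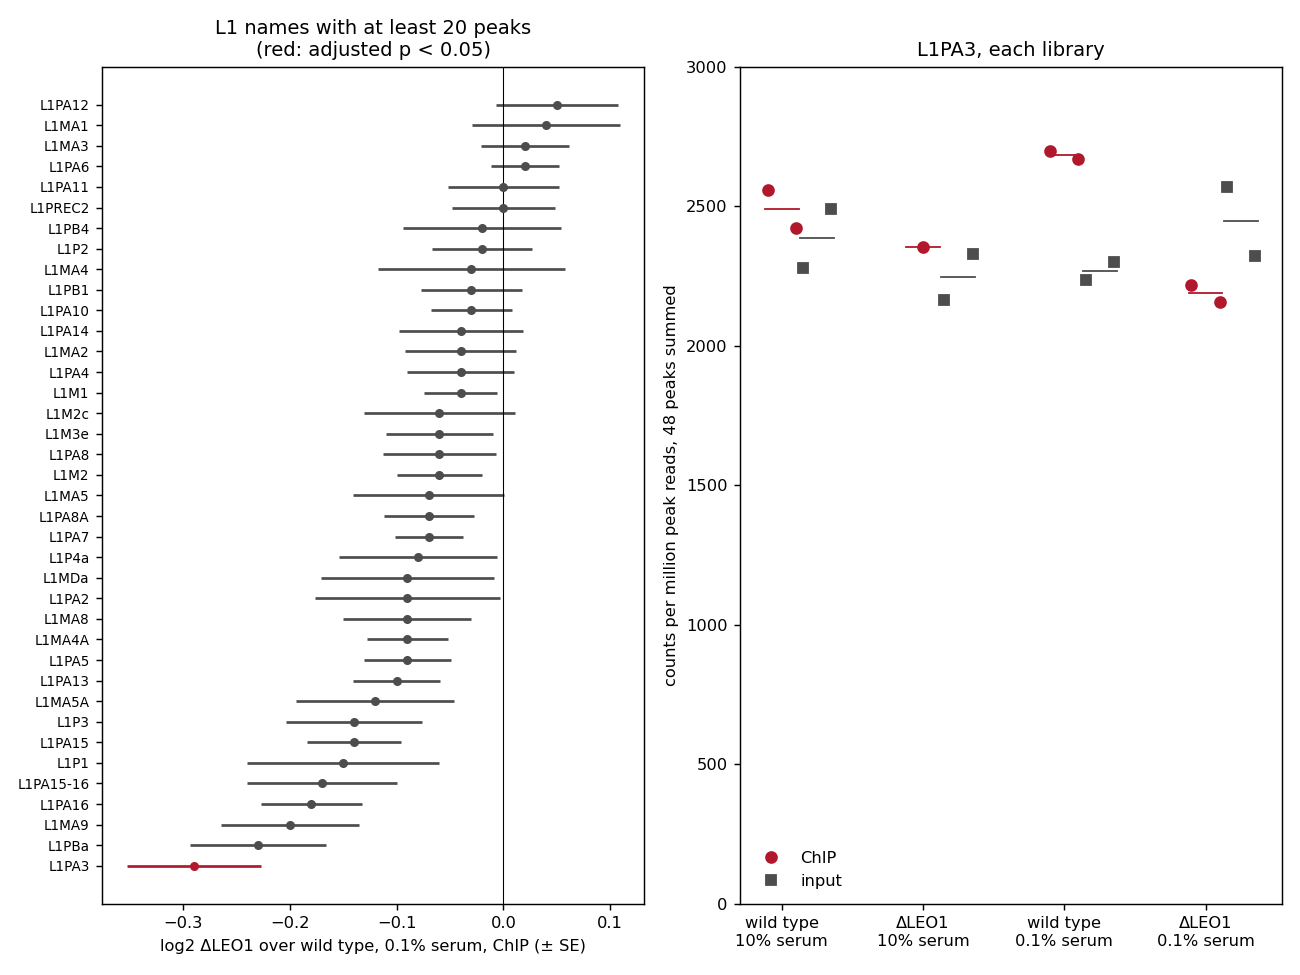
Left, log2 difference of ΔLEO1 to wild type in 0.1% serum ChIP, with SE, for the 38 L1 names with at least 20 peaks, with the called name L1PA3 in red at -0.29. Right, CPM of L1PA3 in each library (ChIP red circles, input grey squares, lines at group means). The ΔLEO1 0.1% serum ChIP libraries (2219 and 2156) lie below the wild-type ones (2699 and 2670). The 0.1% serum inputs have the opposite order, with 2570 and 2321 in ΔLEO1 against 2237 and 2301 in wild type.

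LINE1 peaks on chromosome 4 were lower in ΔLEO1 in ChIP and in input alike. The deposited peaks include 2 on chromosome X and 7 on Y, none of them on LINE1, although 7987 TSS windows lie on X. Chromosome 4 held 267 LINE1 peaks of its 1025 peaks (26.0%), the highest share among chromosomes 1 to 22. These took 8.62% and 8.79% of LINE1 reads in wild-type and 6.99% and 7.09% in ΔLEO1 0.1% serum ChIP (log2 -0.31), and 8.64% and 8.33% against 7.09% and 7.03% in input (log2 -0.27). With 10% serum the ChIP shares were 8.81% and 8.70% in wild type and 7.23% in the ΔLEO1 library, and the inputs 8.52% and 8.14% against 7.89% and 7.62%. For the whole chromosome, no ΔLEO1 library overlapped wild type of the same serum and kind. On the other chromosomes with at least 100 LINE1 peaks, the 0.1% serum difference lay between -0.08 and 0.10 (log2) in ChIP.

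**Figure D5:**
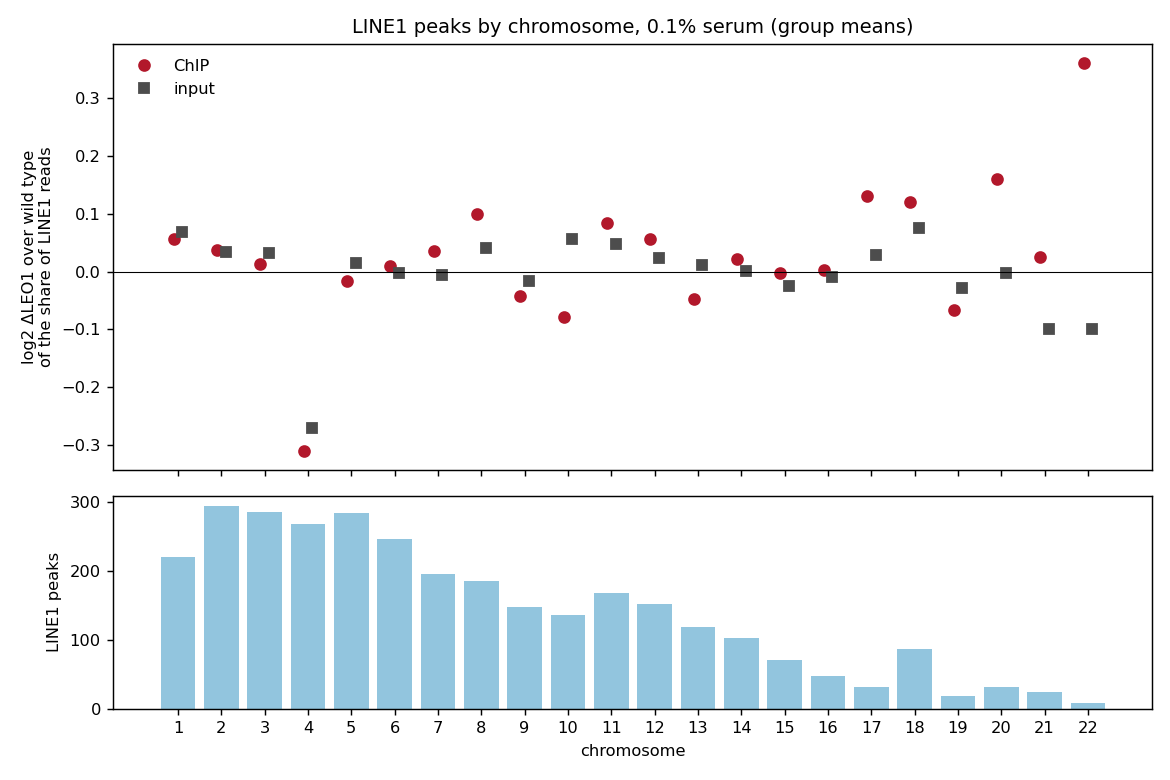
Top, log2 ratio of ΔLEO1 to wild type, from the means of 2 libraries each in 0.1% serum, of the share of LINE1 reads on each chromosome, in ChIP (red circles) and input (grey squares). Bottom, number of LINE1 peaks on each chromosome. Chromosome 4, with 267 LINE1 peaks, stands at -0.31 in ChIP and -0.27 in input, and chromosome 22, at 0.36 in ChIP, has 8.

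Much of the difference on chromosome 4 lay between 80 and 190 Mb, a stretch chosen because ΔLEO1 input reads are lower there. Its input values, and its ChIP values from the same ΔLEO1 clone, are therefore a description. It holds 159 LINE1 peaks (5.10% of them, against 2.81% of the other peaks). Their share of LINE1 reads in 0.1% serum was 5.49% and 5.51% in wild-type and 3.94% and 4.13% in ΔLEO1 ChIP, and 5.24% and 5.10% against 4.23% and 4.02% in input. In 10% serum it was 5.36% and 5.30% against 4.20% in ChIP, while the inputs overlapped, with 5.38% and 5.03% against 5.11% and 4.42%. The other peaks in the stretch showed the same order, with 2.88% and 2.90% of other-peak reads in wild-type and 2.0% and 2.02% in ΔLEO1 0.1% serum ChIP, and 2.67% and 2.66% against 2.07% and 2.05% in input. The remaining 108 LINE1 peaks of the chromosome took 3.12% and 3.27% against 3.05% and 2.97% in 0.1% serum ChIP, also lower in ΔLEO1. In 0.1% serum input they took 3.40% and 3.23% against 2.86% and 3.01%, and in 10% serum ChIP 3.45% and 3.39% against 3.03%, both lower. The 10% serum inputs overlapped, with 3.14% and 3.1% in wild type against 2.78% and 3.2% in ΔLEO1. Of the 159 peaks, 139 (87.4%) had a negative fitted difference in ChIP, against 1596 of all 3120 LINE1 peaks. Their median was -0.46 in ChIP and -0.35 in input (139 of them tested), while LINE1 peaks elsewhere had a ChIP median of 0.006. The part of input DNA in the ChIP values was not tested. The LNCPRESS2, TRAM1L1, TNIP3 and TEMN3-AS1 peaks lie in this stretch. Without its peaks, 0 LINE1 peaks were called and L1PA3, with 2 peaks inside it, was at -0.31 ± 0.06 (adjusted p = 0.0113).

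No LINE1 peak was called in the inputs either. Of 2834 LINE1 peaks with enough reads, edgeR called 0 between genotypes in 0.1% serum and 0 in 10% serum (0% of 14018 peaks each), with 83 and 148 at an unadjusted p under 0.05 (2.93% and 5.22%, against 3.27% and 5.39% of all peaks), and DESeq2 also called 0. Without the ΔLEO1 10% serum input B, which leaves the shallow library A alone in its group, 32 were called in 10% serum. The interaction of genotype and serum gave 0 called LINE1 peaks in ChIP and 0 of all 16092 peaks, with 1 ΔLEO1 library in 10% serum. An unadjusted p under 0.05 was reached by 165 LINE1 peaks (5.29%, against 5.54% of all peaks).

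The third question was whether LINE1 peaks changed when wild-type cells entered quiescence. Against TSS-window reads, LINE1 peaks took 24.5 ± 1.04 reads per 1000 in 10% serum and 22.8 ± 0.375 in 0.1% serum (SD, n = 2 each), a ratio of 0.930, and the other peaks had a ratio of 0.906. The libraries did not overlap between serum conditions, and 2 against 2 libraries cannot pass 0.05 in an exact permutation test. The LINE1 share of peak reads was 20.3% and 20.5% in 10% serum and 20.9% and 20.7% in 0.1% serum. With TMM, edgeR called 0 LINE1 peaks, and 0% of all peaks, with 205 LINE1 peaks (6.57%) at an unadjusted p under 0.05 against 7.27% of all. DESeq2 called 0 as well. The median log2 difference was 0.03 over LINE1 peaks and -0.01 over all peaks, and the groups did not overlap in 585 LINE1 peaks higher and 515 lower in 0.1% serum (18.8% and 16.5%, against 17.7% and 19.5% of all peaks).

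The peak nearest to the threshold was an L1M1 peak 44719 bp from ZDHHC17, which encodes a palmitoyltransferase (chr12:76719011-76719700). It had 18.0 and 19.2 CPM in wild-type 10% serum and 72.5 and 84.9 CPM in wild-type 0.1% serum (2.05 ± 0.46, adjusted p = 0.0503 in edgeR). In ΔLEO1 it had 36.2 CPM in the 10% serum library and 76.9 and 79.0 CPM in 0.1% serum. Wild-type inputs had 114 and 71.0 CPM in 10% serum and 47.3 and 53.2 CPM in 0.1% serum, the opposite order. The adjusted p was 0.0494 with TSS-window totals, and DESeq2 gave 1.

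The other large differences between serum conditions did not pass. Higher in both 0.1% serum libraries were an L1M4b peak near MIR4465 (1.48 ± 0.52), an L1PA10 peak near SULT1C2P1 (1.36 ± 0.58) and an L1M1 peak near C4orf33 (1.33 ± 0.62). Lower in both were an L1MA3 peak near PER4 (-1.94 ± 0.69), the TEMN3-AS1 peak (-1.67 ± 0.58), an L1PA15 peak near CALCRL, which encodes a receptor for calcitonin family peptides (-1.53 ± 0.43), an L1PB1 peak near C12orf42 (-1.49 ± 0.70) and an L1MB2 peak near LINC02141 (-1.47 ± 0.47). The CALCRL peak (chr2:187278860-187279512) had 74.9 and 82.1 CPM in 10% serum and 24.2 and 30.6 CPM in 0.1% serum, and 63.3 CPM against 47.3 and 46.5 CPM in ΔLEO1. Adjusted p in edgeR was 0.269 or more for these 8 peaks.

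No L1 name was called between serum conditions, where 0.145% of the 689 names were called, and 9 L1 names had an unadjusted p under 0.05 (8.04%, against 6.68% of all names). The closest was L1MA2, with 60 peaks, which had 3728 and 3900 CPM in wild-type 10% serum and 4403 and 4477 CPM in 0.1% serum (0.22 ± 0.051, adjusted p = 0.0948 in edgeR). The groups did not overlap. Wild-type inputs had 4558 and 4534 CPM in 10% serum and 4106 and 4187 CPM in 0.1% serum, the opposite order. In ΔLEO1 ChIP the same name had 4265 CPM in 10% serum and 4484 and 4123 CPM in 0.1% serum. L1PA3 differed by 0.11 ± 0.06 between serum conditions in wild type (adjusted p = 0.676).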

How the data were processed

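The authors deposited raw read counts of 16 libraries per peak and per TSS window (272902 windows of 2000 bp). The submitters' processing notes list STAR 2.7.10a, HOMER, bcl2fastq 2.20.0.422 and the builds hg38 and dm6. The peak caller's settings, the libraries on which peaks were called and the treatment of duplicate reads are not given in the sources used here. Coordinates are as the peak table gives them. The members and lists were chosen with earlier results of these data known.

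Counts were tested in edgeR 4.0.16 (R 4.3.3) by the two-sided quasi-likelihood F-test, with 1 coefficient per group, filterByExpr (minimum count 10), TMM and Benjamini-Hochberg adjustment over all peaks or annotation names, calling an adjusted p under 0.05. Genotype and serum used 7 ChIP libraries, input contrasts 8, and ChIP over input all 15. SE came from the F statistic. Replicate counts differed by more than sampling noise (chi-square per degree of freedom 1.09 to 1.80). Named peaks were the 10 highest in ChIP and, per contrast, the 5 largest differences each way among peaks whose groups did not overlap and whose higher group had at least 10 counts per library. For serum, 1 peak that this rule names is not reported here. Named L1 names had at least 20 peaks or were called. The group of other L1P names, the fits without the stretch of chromosome 4 and the left-out libraries for ChIP over input were added after the data were seen. Alternatives were DESeq2 1.42.0, other scalings, no filter, the replicate letter as a block and leaving out each library, and the edgeR code was tested on simulated data. TSS-window reads were 2153836 to 3696942 in ChIP and 3267811 to 9238282 in input. Intervals cover counting error only. Gene bodies and promoters came from RefSeq (GRCh38.p14).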

Additional observations from a re-analysis of the deposited data

How the results depend on the processing

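The counts of called LINE1 peaks and L1 names changed with the scaling, the replicate block and the libraries left out. With TSS-window totals in place of TMM, 13 LINE1 peaks were called between genotypes and 2 between serum conditions, and all 112 L1 names were called for ChIP over input, where L1ME4a turned from -0.71 to 1.20 (log2). With library totals alone, 1 L1 name was called for serum and 1 for ChIP over input. With TMM on the peak table, 1 LINE1 peak was called for ChIP over input. DESeq2 called 0 L1 names for genotype and 5 for ChIP over input. All 8 ChIP libraries gave 2 L1 names for genotype. The replicate letters share only a letter (correlations of deviations between -0.003 and 0.029), and with the letter as a block 1 LINE1 peak was called for serum (the ZDHHC17 peak, adjusted p = 0.0439 in edgeR), and 5 and 2 L1 names for genotype and serum. With the block, the names for genotype were L1PA3 (adjusted p = 0.00131 in edgeR), L1PA16 (0.00948), L1PA15 (0.0157), L1PBa (0.0324) and L1MEi (0.0157, 1 peak), all lower in ΔLEO1, and those for serum were L1MA2 (0.00443) and L1MB5 (0.0487, 1 peak), both higher in 0.1% serum. Leaving out 1 library gave 0 to 3 L1 names for genotype, 4 to 18 for ChIP over input and 0 to 32 LINE1 peaks for genotype in 10% serum input. Leaving out the 1% of highest peaks moved the median LINE1 share of peak reads from 20.5% to 21.1% in ChIP and from 20.3% to 20.8% in input. Of the summary values under other settings, 84 stayed near the first value and 23 moved. The cause was not tested. With a median of 6 to 23 reads per LINE1 peak and library, single peaks are imprecise.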
